A study of Homo sapiens with 12 samples.

Results

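The 8 genes described here encode the RUNX transcription factors (RUNX1, RUNX2 and RUNX3), their shared partner subunit (CBFB), and co-repressors of the TLE family (TLE1 and TLE3) and the CBFA2T family (CBFA2T2 and CBFA2T3). They were taken by symbol from an RNA-seq table with 22324 distinct gene symbols, and all 8 were found in it. The libraries came from MCF10A cells, an immortalized, non-tumorigenic human mammary epithelial line kept under 20 passages in medium with horse serum, insulin, EGF, hydrocortisone and cholera toxin. The 12 libraries were 4 of the p53 knockout (p53 KO) clone KO313, 4 of the p53 KO clone KO414 and 4 of the wild-type (WT) cells, which the study calls parental. Each clone was grown from a single cell edited with CRISPR-Cas9, the nuclease Cas9 steered by guide RNAs, and each had its own pair of guides. Each group's 4 libraries are biological repeats according to the methods. The 8 p53 KO libraries therefore stand for 2 clones, and p53 loss cannot be told apart from what else differs between an edited clone and the parental cells. The question behind the comparison was how CBFB and RUNX1 work together with p53, so the levels of the CBFB and RUNX1 transcripts in cells without p53, and of the co-repressors that RUNX factors use, were read in every library.

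RUNX proteins bind DNA through the conserved Runt domain, and CBFB, which does not touch DNA, strengthens that binding. RUNX1 is best known from blood formation and RUNX2 from bone, and in the mammary gland RUNX1 with CBFB supports epithelial identity. RUNX proteins activate or repress their targets, and for repression they recruit TLE proteins, relatives of fly Groucho, through a short motif at the RUNX C terminus. CBFA2T2 and CBFA2T3 belong to the ETO family, named after the partner fused to RUNX1 in a form of leukemia, and bring histone deacetylase complexes to DNA-bound factors.

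Expression was given as RPKM, read numbers divided by gene length and sequencing depth, and the whole numbers behind the values had been brought to nearly equal library totals that differed by 0.123%. Between 15600 and 16641 genes were above 0 in a library. CDKN1A, the p53-induced cell cycle inhibitor p21, averaged 30.7 RPKM in the 8 p53 KO libraries and 249 RPKM in WT. KO414 replicate 1 stood farthest from the other libraries of its group. The epithelial markers KRT5, KRT14, KRT17, TP63, CDH1 and EPCAM were present in every library, with a summed level of 1135 to 1293 RPKM in KO313, 1045 to 1137 RPKM in KO414 and 1621 to 1867 RPKM in WT. None of 10 blood cell markers reached 0.5 RPKM in any library, and 7 fibroblast markers summed to 3.86 to 4.05 RPKM in KO313, 3.25 to 4.00 RPKM in KO414 and 3.79 to 4.31 RPKM in WT. Of the 6, KRT5, KRT14, KRT17 and CDH1 fell and TP63 rose (limma, p53 KO against WT). EPCAM was not called in that comparison and was called higher in KO414 against WT. KRT5 alone averaged 989 RPKM in p53 KO and 1344 RPKM in WT. The part of the lower epithelial marker sum of p53 KO libraries in the results was not tested. In bulk RNA, fewer cells with a transcript and less of it per cell cannot be told apart.

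The order of the 8 genes by level was the same in KO313, KO414 and WT down to the genes near 0. CBFB was the highest, followed by RUNX1, TLE3, TLE1, CBFA2T2 and RUNX2, and RUNX3 and CBFA2T3 were listed at or near 0. In KO313 each of the 6 expressed genes was clear of the next one, whereas in KO414 and in WT the ranges of TLE1 and CBFA2T2 overlapped. RPKM is divided by gene length, but the study's results describe reads biased to the 3′ end, for which this division understates long transcripts. Levels, shares and ratios between genes are therefore given as RPKM values and not as relative transcript numbers. Among the genes above 0 in at least 1 WT library, 89.5% had a WT mean below that of CBFB, 66.6% below RUNX1 and 48.8% below TLE3. In the same genes 46.0% had a WT mean below that of TLE1, 45.0% below CBFA2T2 and 31.2% below RUNX2.

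**Figure D1:**
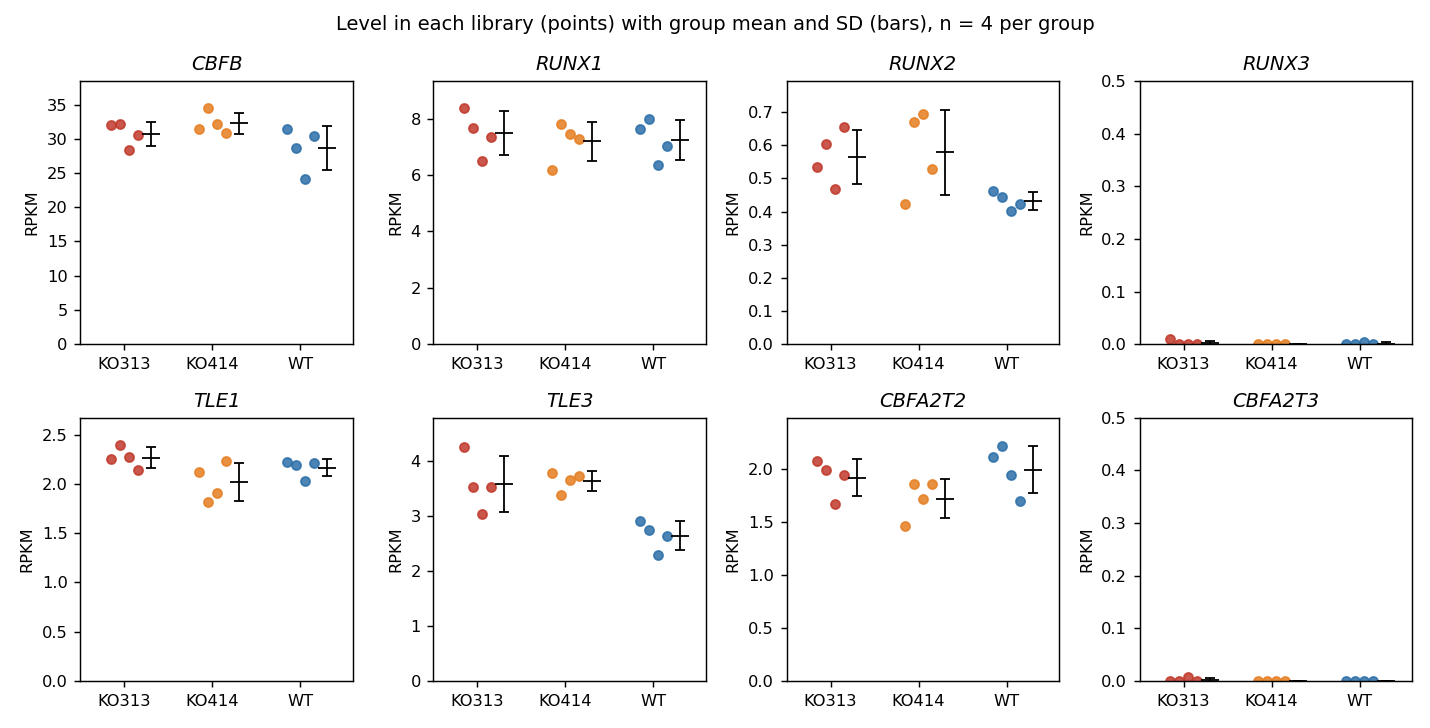
RPKM (vertical axes, each from 0) of the 8 genes in the 4 libraries each of KO313, KO414 and WT (points), with the group mean and SD (bars). All 8 p53 KO points of TLE3 lie above its 4 WT points, while RUNX3 and CBFA2T3, drawn on an axis to 0.5 RPKM, lie at or near 0.

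Differences between groups were tested with limma on log2(RPKM + 0.5) over the 12215 genes that had at least 0.5 RPKM in at least 4 libraries, and a gene was called at a Benjamini-Hochberg adjusted p under 0.05. Of the 8 genes, 6 passed this filter, and RUNX3 and CBFA2T3 lay below it. RUNX2 passed only through p53 KO libraries, since no WT library reached 0.5 RPKM. Only TLE3 was called in p53 KO against WT, 1 of the 6 genes tested, where 29.6% of all tested genes were called (15.6% higher and 14.0% lower). None of the 6 was past a fold of 2, and neither were most other genes, since 1.47% of tested genes were called with that fold.

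CBFB, the partner subunit that all RUNX factors share, had 31.95, 32.13, 28.36 and 30.52 RPKM in KO313, 31.45, 34.43, 32.20 and 30.91 RPKM in KO414, and 31.40, 28.63, 24.17 and 30.38 RPKM in WT. The groups overlapped, with 5 of 8 p53 KO libraries above the highest WT library and none below the lowest, which was WT replicate 3. The means were 30.7 ± 1.75 RPKM in KO313, 32.2 ± 1.55 RPKM in KO414 and 28.6 ± 3.19 RPKM in WT (SD, n = 4 each). The log2 difference of p53 KO and WT was 0.14 with a 95% interval of -0.00133 to 0.28, and it did not pass the test (limma, adjusted p = 0.130). For KO414 against WT the difference was 0.17 (adjusted p = 0.106) and for KO313 against WT 0.11 (adjusted p = 0.371). Without WT replicate 3 the p53 KO difference was 0.06 (adjusted p = 0.444). CBFB thus remained expressed in both clones, and a difference passed the adjusted threshold in neither, although the unadjusted p of KO414 against WT was 0.0404.

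RUNX1, which had the highest RPKM of the 3 DNA-binding RUNX genes, had 8.38, 7.69, 6.50 and 7.35 RPKM in KO313, 6.19, 7.82, 7.47 and 7.29 RPKM in KO414, and 7.62, 7.97, 6.36 and 7.02 RPKM in WT. The 3 groups covered nearly the same range, and the lowest library of each group stood at a similar level. The log2 difference of p53 KO and WT was 0.02 with a 95% interval of -0.15 to 0.18 (limma, adjusted p = 0.903). The RPKM values do not separate the RUNX1 transcripts made from its different promoters.

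RUNX2, the RUNX factor of bone formation, was expressed at a low level. It had 0.535, 0.605, 0.468 and 0.654 RPKM in KO313, 0.422, 0.672, 0.693 and 0.528 RPKM in KO414, and 0.461, 0.444, 0.401 and 0.422 RPKM in WT. Behind these values were whole numbers of 120 to 197 scaled reads in p53 KO libraries and 114 to 131 in WT libraries. All 4 KO313 libraries lay above all 4 WT libraries, a separation in that direction that 15.8% of tested genes showed, and in KO414 replicate 1 lay within the WT range while the other 3 lay above it. The log2 difference of p53 KO and WT was 0.20 with a 95% interval of 0.03 to 0.36, and the adjusted p missed the threshold (limma, adjusted p = 0.0738, unadjusted p = 0.0247). An unadjusted p under 0.05 was found for 39.6% of tested genes. An exact two-sided permutation test of the libraries gave p = 0.0263 for p53 KO against WT, p = 0.0286 for KO313 against WT, which is the smallest it can give with 4 against 4, and p = 0.114 for KO414 against WT. The call moved with KO414 replicate 1, without which the difference was 0.23 (adjusted p = 0.0243), and with quantile normalization, which gave 0.31 (adjusted p = 0.00680) and also called RUNX2 in KO313 (adjusted p = 0.0293) and in KO414 (adjusted p = 0.00731) against WT. At this low level the p53 KO difference moved with the pseudocount, to 0.32 with 0.1 and 0.13 with 1, and was called with neither. Since RUNX2 entered the test only through p53 KO libraries, the filter itself favoured a difference in this direction.

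RUNX3, which acts in T cells, neurons and some epithelia, was listed above 0 in only 2 libraries, at 0.00903 RPKM in KO313 replicate 1 and 0.00452 RPKM in WT replicate 3, which stand for 2 and 1 scaled reads. No KO414 library had any, and p53 KO and WT libraries gave p = 1.00 in an exact permutation test (two-sided). Its contribution to the RUNX transcripts of these cells was too small to measure at this depth.

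Taking the 3 RUNX genes together, their summed level was 8.04 ± 0.816 RPKM in KO313, 7.77 ± 0.819 RPKM in KO414 and 7.68 ± 0.729 RPKM in WT (SD, n = 4 each). RUNX1 made up 91.8 to 93.9% of the sum in KO313, 91.5 to 93.6% in KO414 and 94.0 to 94.7% in WT. RUNX2 made up 5.99 to 8.18% in KO313, 6.38 to 8.49% in KO414 and 5.27 to 5.93% in WT. These shares did not overlap between p53 KO and WT libraries, although the closest pair, KO313 replicate 1 and WT replicate 3, was 5.99 and 5.93%. CBFB exceeded the RUNX sum by a ratio of 3.58 to 4.07 in KO313, 3.94 to 4.75 in KO414 and 3.40 to 4.08 in WT, with overlap between all groups. Ratios were described and not tested.

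**Figure D2:**
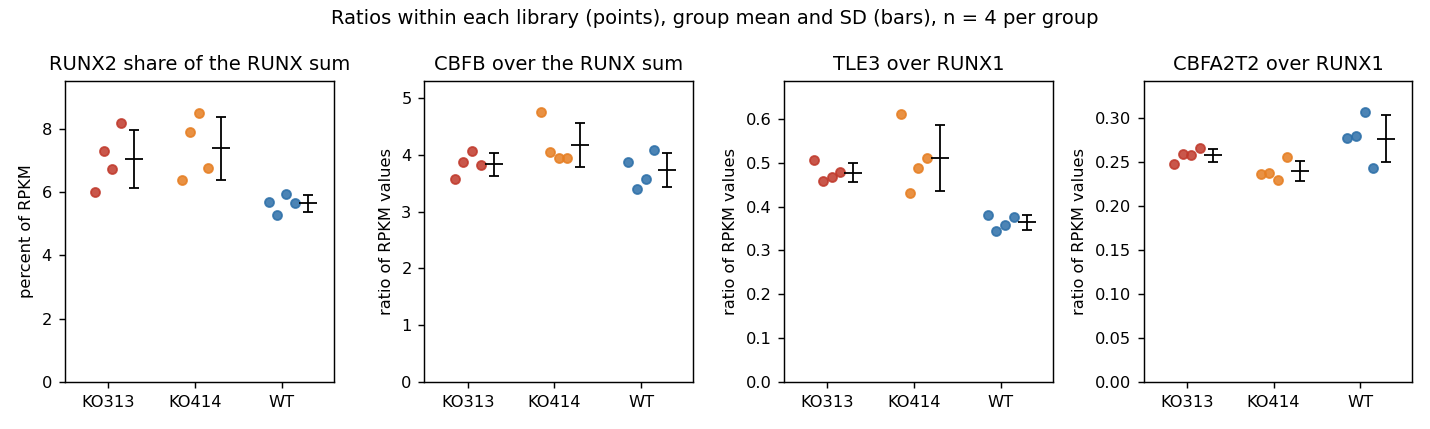
Ratios of RPKM values within each library (points) of KO313, KO414 and WT, with the group mean and SD (bars, n = 4 each), drawn from 0. The RUNX2 share and the ratio of TLE3 over RUNX1 are higher in all 8 p53 KO libraries than in the 4 WT libraries, and the ratio of CBFB over the RUNX sum overlaps. How often ratios of other genes separate in this way was not counted.

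TLE3, a co-repressor that also acts with NOTCH and WNT pathway factors, was the member that differed. It had 4.25, 3.52, 3.03 and 3.52 RPKM in KO313, 3.78, 3.38, 3.65 and 3.73 RPKM in KO414, and 2.90, 2.74, 2.28 and 2.64 RPKM in WT. Every p53 KO library lay above every WT library, as 9.25% of tested genes did in that direction, and the lowest p53 KO library was KO313 replicate 3. The scaled reads behind the values were 912 to 1279 in p53 KO libraries and 686 to 872 in WT libraries. The mean was 3.58 ± 0.503 RPKM in KO313, 3.63 ± 0.179 RPKM in KO414 and 2.64 ± 0.262 RPKM in WT (SD, n = 4 each), a ratio of 1.37 between the 8 p53 KO and the 4 WT libraries. TLE3 rose by a log2 difference of 0.39 ± 0.08 (SE, 95% interval 0.22 to 0.55) in p53 KO against WT (limma, adjusted p = 0.00177). The difference was of like size in both clones, at 0.37 in KO313 (adjusted p = 0.00955) and 0.40 in KO414 (adjusted p = 0.00493). The clones themselves differed by -0.03 with a 95% interval of -0.22 to 0.17 (adjusted p = 0.985).

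TLE1, the close relative of TLE3, had 2.25, 2.40, 2.27 and 2.14 RPKM in KO313, 2.13, 1.82, 1.91 and 2.24 RPKM in KO414, and 2.22, 2.19, 2.03 and 2.21 RPKM in WT. The groups overlapped, with the lowest values in KO414 replicates 2 and 3. The log2 difference of p53 KO and WT was -0.01 with a 95% interval of -0.15 to 0.12 (limma, adjusted p = 0.898). Between the clones TLE1 was 0.14 higher in KO313 than in KO414 (95% interval -0.00345 to 0.28), which did not pass (adjusted p = 0.460). The ratio of TLE3 over TLE1 was 1.34 to 1.89 in KO313, 1.67 to 1.92 in KO414 and 1.12 to 1.31 in WT, without overlap between p53 KO and WT libraries. TLE3 alone was also without overlap, and how often ratios of other genes separate in this way was not counted.

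**Figure D3:**
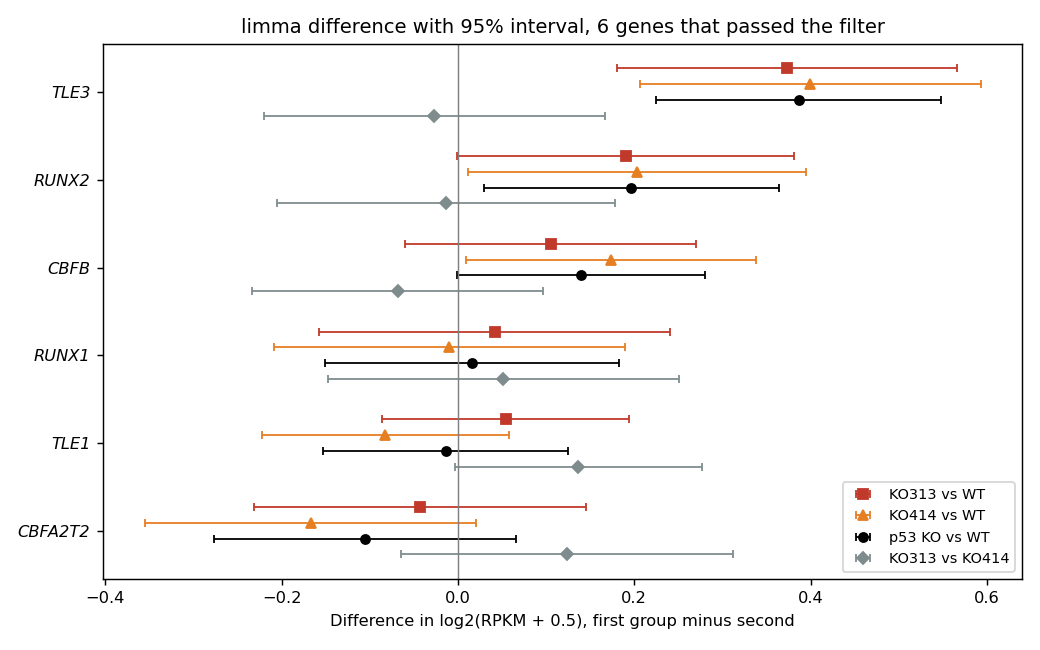
Difference in log2(RPKM + 0.5) with its 95% interval from limma (horizontal axis) for the 6 genes that passed the filter, in KO313 against WT (squares), KO414 against WT (triangles), p53 KO against WT (circles) and KO313 against KO414 (diamonds). The intervals of TLE3 against WT lie above 0 in all 3 comparisons, from 0.18 in KO313 and 0.21 in KO414 upward, and those of RUNX1 and TLE1 span 0.

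Promoter windows from RefSeq (GRCh38.p14, 250 bases before to 50 after a start) were searched for the core RUNX site TGTGGT or its complement ACCACA on either strand. Of the 8 genes, 7 had windows, 11 in all, and 3 windows held the letters, 1 each of RUNX2, RUNX3 and TLE3. In comparison, 13.1% of 35116 windows of that length held at least 1 copy. The windows of TLE3 and RUNX2 are shown with the core site in capitals, TLE3 because it is the member that rose and RUNX2 because 4 copies stood in 1 window, as in 5 of all windows. The TLE3 window is chr15:70094740-70095039 on the minus strand and the RUNX2 window is chr6:45328080-45328379 on the plus strand, both written 5′ to 3′ along the gene.
TLE3 promoter window: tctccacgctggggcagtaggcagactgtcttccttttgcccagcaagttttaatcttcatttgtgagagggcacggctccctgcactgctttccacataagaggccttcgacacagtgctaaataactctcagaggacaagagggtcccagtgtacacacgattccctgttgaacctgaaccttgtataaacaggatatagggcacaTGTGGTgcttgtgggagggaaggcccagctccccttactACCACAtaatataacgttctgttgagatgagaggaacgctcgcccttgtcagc
RUNX2 promoter window: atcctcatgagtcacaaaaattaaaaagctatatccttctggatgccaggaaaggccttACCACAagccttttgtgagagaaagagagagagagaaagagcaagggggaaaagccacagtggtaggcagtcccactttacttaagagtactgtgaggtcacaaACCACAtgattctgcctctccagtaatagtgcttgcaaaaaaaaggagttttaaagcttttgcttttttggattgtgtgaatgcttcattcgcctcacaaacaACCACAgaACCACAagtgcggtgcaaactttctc
The TLE3 copies begin at -42 and -3 from the start and read in opposite directions. At least 2 copies stood in 1.31% of all windows, and 1 RUNX3 window also held 2. The RUNX2 copies begin at -191, -87, 17 and 25, and all 4 read as ACCACA. The other 2 TLE3 windows and the other RUNX2 window held none, and the table of levels does not show which start was used. The core of a p53 response element was searched in 1 form only, as CATG, any 6 bases and CATG again. It was in none of the 11 windows and in 0.373% of all windows. So rare a form would seldom be met in 11 windows, and its absence does not show that p53 sites are absent. A match of letters is a description of the window and not of binding.

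TLE4 stood apart within the same family. It is a further full-length Groucho relative and belongs to a list of 21 other TLE and CBFA2T co-repressors and complex members, of which 14 were tested. TLE4 had 1.28, 1.55, 1.65 and 1.54 RPKM in KO313, 0.993, 1.16, 1.13 and 1.32 RPKM in KO414, and 2.82, 2.74, 2.80 and 2.44 RPKM in WT. All p53 KO libraries lay below all WT libraries, which 9.74% of tested genes did, and TLE4 fell by 0.82 on the log2 scale (SE 0.09; limma, adjusted p = 2.56e-05). The summed level of TLE1, TLE3 and TLE4, a sum chosen after their values were seen, was 7.35 ± 0.361 RPKM in KO313, 6.81 ± 0.388 RPKM in KO414 and 7.50 ± 0.371 RPKM in WT (SD, n = 4 each). Within that sum TLE3 took 43.6 to 54.6% in KO313, 51.2 to 54.8% in KO414 and 32.1 to 36.5% in WT, and TLE4 took 16.5 to 23.7% in KO313, 14.4 to 18.3% in KO414 and 33.5 to 39.3% in WT. TLE3 and TLE4 were thus near equal in RPKM in WT, with a ratio of 0.816 to 1.08, and TLE3 was 1.84 to 3.32 times TLE4 in KO313 and 2.82 to 3.81 times in KO414. The ratio and the shares were also chosen after the values were seen. Since TLE3 was called higher and TLE4 lower, they were bound to differ and are no separate result. AES, a short family member that lacks the repeats by which the others bind partners, was far higher at 45.2 RPKM in p53 KO and 44.3 RPKM in WT and was not called (log2 difference 0.02, adjusted p = 0.874). TLE2 averaged 0.392 RPKM in p53 KO and 0.358 RPKM in WT, and TLE6 averaged 0.0835 RPKM in p53 KO and 0.0597 RPKM in WT, both below the filter.

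**Figure D4:**
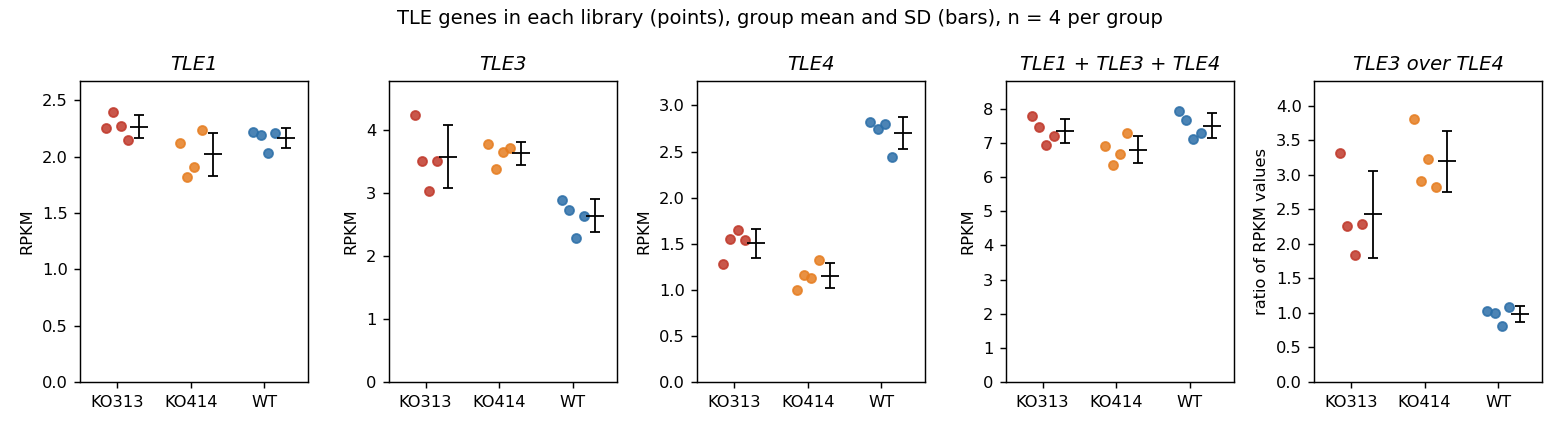
RPKM of TLE1, TLE3 and TLE4, their sum, and the ratio of TLE3 over TLE4 in the 4 libraries each of KO313, KO414 and WT (points), with the group mean and SD (bars), all axes from 0. TLE3 is higher and TLE4 lower in every p53 KO library than in any WT library, while the sum overlaps, at 7.35 RPKM in KO313, 6.81 RPKM in KO414 and 7.50 RPKM in WT.

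CBFA2T2, the ETO family member with the highest RPKM, had 2.07, 1.99, 1.67 and 1.95 RPKM in KO313, 1.46, 1.86, 1.71 and 1.86 RPKM in KO414, and 2.11, 2.22, 1.95 and 1.70 RPKM in WT. The groups overlapped, and the lowest library was KO414 replicate 1. The log2 difference of p53 KO and WT was -0.11 with a 95% interval of -0.28 to 0.07 (limma, adjusted p = 0.354). CBFA2T3 was listed above 0 only in KO313 replicate 3, at 0.00803 RPKM (exact two-sided permutation p = 1.00), and RUNX1T1, the third gene of the family, averaged 0.0191 RPKM in p53 KO and 0.0268 RPKM in WT. RUNX1T1 was above 0 in every library, at up to 0.0482 RPKM in WT replicate 3. CBFA2T2 was the one ETO family transcript that passed the filter.

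Of the 14 tested genes in the list of other co-repressors and of the enzymes and scaffolds they work with, 2 rose, 2 fell and 10 were not called, with a median log2 difference of -0.03 beside 0.01 over all tested genes. These 4 of 14 lie near the 29.6% called among all tested genes. GPS2, a subunit of the NCOR and HDAC3 complex, rose to 17.5 RPKM in p53 KO, against 13.6 RPKM in WT (log2 difference 0.34, limma adjusted p = 0.00104). NCOR1, a scaffold of that complex, was not called and averaged 7.60 RPKM in p53 KO and 7.47 RPKM in WT. HDAC3, from the list of RUNX partners, was not called either and averaged 36.4 RPKM in p53 KO and 35.9 RPKM in WT. LDB1, which bridges LIM-domain factors on DNA, fell to 13.0 RPKM in p53 KO, against 19.0 RPKM in WT (-0.53, adjusted p = 3.10e-06). LMO2, a LIM-only protein that binds LDB1, had 0.929 RPKM in p53 KO and 0.666 RPKM in WT, and its call (adjusted p = 0.0442) did not hold. It was lost without KO313 replicate 3, without any 1 KO414 library and without any 1 WT library, with limma adjusted p of 0.0553 to 0.119 in these fits, the highest without WT replicate 2, and it was called in KO414 and not in KO313.

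Among proteins that bind or modify RUNX factors, 28 of 30 listed genes were tested, of which 6 rose, 2 fell and 20 were not called, with a median log2 difference of 0.07. These 8 of 28 lie near the background of 29.6% (15.6% higher and 14.0% lower). ETS1, an ETS factor that binds DNA together with RUNX1, rose to 19.9 RPKM in p53 KO, against 13.0 RPKM in WT (log2 difference 0.59, limma adjusted p = 7.08e-05), with all 8 p53 KO libraries above the WT range, as for 9.25% of tested genes. ELF4, an ETS factor that interacts with RUNX1, averaged 10.5 RPKM in p53 KO and 7.81 RPKM in WT (0.40, adjusted p = 0.00180). SMAD3, a transducer of TGF-beta signals, averaged 6.57 RPKM in p53 KO and 5.22 RPKM in WT (0.30, adjusted p = 0.00293). The chromatin repressors SIN3A, SUV39H1 and HDAC1 were the other 3 that rose. The genes that fell were SMAD5, a transducer of BMP signals (16.3 RPKM in p53 KO and 19.9 RPKM in WT, adjusted p = 0.0181), and GATA3, a factor of luminal cells (1.91 RPKM in p53 KO and 2.54 RPKM in WT, adjusted p = 0.0268). Taken by clone, GATA3 was called in KO414 (1.60 RPKM) and not in KO313 (2.22 RPKM, adjusted p = 0.132), with a called difference between the clones. SMAD5 was called in KO414 (adjusted p = 0.0383) and not in KO313 (0.0632), and SIN3A in KO313 (0.0287) and not in KO414 (0.112). Calls were lost without WT replicate 1 for SMAD5 (adjusted p = 0.0669), GATA3 (0.0733) and SIN3A (0.0540), without WT replicate 4 for SMAD5 (0.0505), GATA3 (0.0597) and SIN3A (0.0861), without WT replicate 2 for GATA3 (0.0859) and without WT replicate 3 for SIN3A (0.0640). Without KO414 replicate 1, 12 genes of the list were called higher, and without WT replicate 1 or 4, 0 were called lower.

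Of 18 DNA-binding factors that recruit TLE proteins, 12 were tested, of which 2 were called higher, 4 were called lower and 6 were not called, beside 15.6% higher and 14.0% lower among all tested genes, with a median log2 difference of -0.00230. The 2 that rose, TCF7 and LEF1, are nuclear partners of beta-catenin in the WNT pathway. LEF1 averaged 1.86 RPKM in p53 KO and 1.35 RPKM in WT (log2 difference 0.36, limma adjusted p = 0.000546). The HES genes among those that fell belong to a family of repressors that includes targets of NOTCH. Not all HES and HEY genes of the list went down. HES4 averaged 2.23 RPKM in p53 KO and 1.20 RPKM in WT and was not called. HEY1, below the filter, averaged 0.340 RPKM in p53 KO and 0.144 RPKM in WT. HES2 had the widest difference of the list, at 1.43 RPKM in p53 KO and 10.1 RPKM in WT (-2.45, adjusted p = 4.52e-12), and the other HES genes that fell were HES6 (1.86 RPKM in p53 KO and 2.85 RPKM in WT) and HES1 (4.51 RPKM in p53 KO and 6.21 RPKM in WT), which missed the threshold when WT replicate 1 was left out (adjusted p = 0.0665). HES1 was called in KO414 (3.83 RPKM, adjusted p = 0.000517) and not in KO313 (5.19 RPKM, adjusted p = 0.122), and the difference between the clones did not pass (0.40, adjusted p = 0.0557). With quantile normalization 4 genes of the list were called higher. PRDM1, a repressor of the PR domain family, passed the filter only through WT libraries and averaged 0.157 RPKM in p53 KO and 0.574 RPKM in WT. The filter itself favoured a lower call of PRDM1. With PRDM1 set aside, 3 genes of the list fell.

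Of 23 genes described as regulated by RUNX factors, in this study or in other settings, 10 were tested. Of these, 4 were called higher, 2 were called lower and 4 were not called, beside 29.6% called among all tested genes. Their median log2 difference was 0.20. SNAI2, which encodes the basal epithelial factor Slug, rose to 28.5 RPKM in p53 KO, against 21.2 RPKM in WT (log2 difference 0.42, limma adjusted p = 7.38e-05). BCL2L11, the pro-apoptotic BIM, CSF2, the cytokine GM-CSF, and MPO, the myeloid enzyme myeloperoxidase, were the other 3 called higher. CSF2 had 0.845 RPKM in p53 KO and 0.494 RPKM in WT, and MPO, which passed the filter only through p53 KO libraries, had 0.566 RPKM in p53 KO and 0.300 RPKM in WT, so that the filter favoured its call. The call of CSF2 was lost without KO313 replicate 3, KO414 replicate 3 or 4, or WT replicate 1, 2 or 3 (limma adjusted p 0.0561 to 0.106), and that of BCL2L11 without KO313 replicate 2, KO414 replicate 4, or WT replicate 2, 3 or 4 (0.0511 to 0.0897). Both were called in KO414 and not in KO313 against WT. With no filter on low values 6 genes of the list were called lower. The genes that fell were CDKN1A, a direct p53 target, and CLDN1, a tight junction protein, which averaged 2.52 RPKM in p53 KO and 9.49 RPKM in WT (-1.79, adjusted p = 2.24e-05). TP73 and NOTCH3, which the study links to CBFB and RUNX1, lay below the filter. TP73 averaged 0.192 RPKM in p53 KO and 0.599 RPKM in WT (log2 difference -0.68, exact two-sided permutation p = 0.00404). The study picked TP73 from genes that differed between p53 KO and parental cells by RNA-seq, so its tests against WT are no separate support. NOTCH3 averaged 0.279 RPKM in p53 KO and 0.538 RPKM in WT (-0.41, exact two-sided permutation p = 0.00202). Each gene was lower in KO313 and in KO414 against WT (exact two-sided permutation p = 0.0286 in each comparison). That is the smallest p an exact permutation test of 4 against 4 can give.

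**Figure D5:**
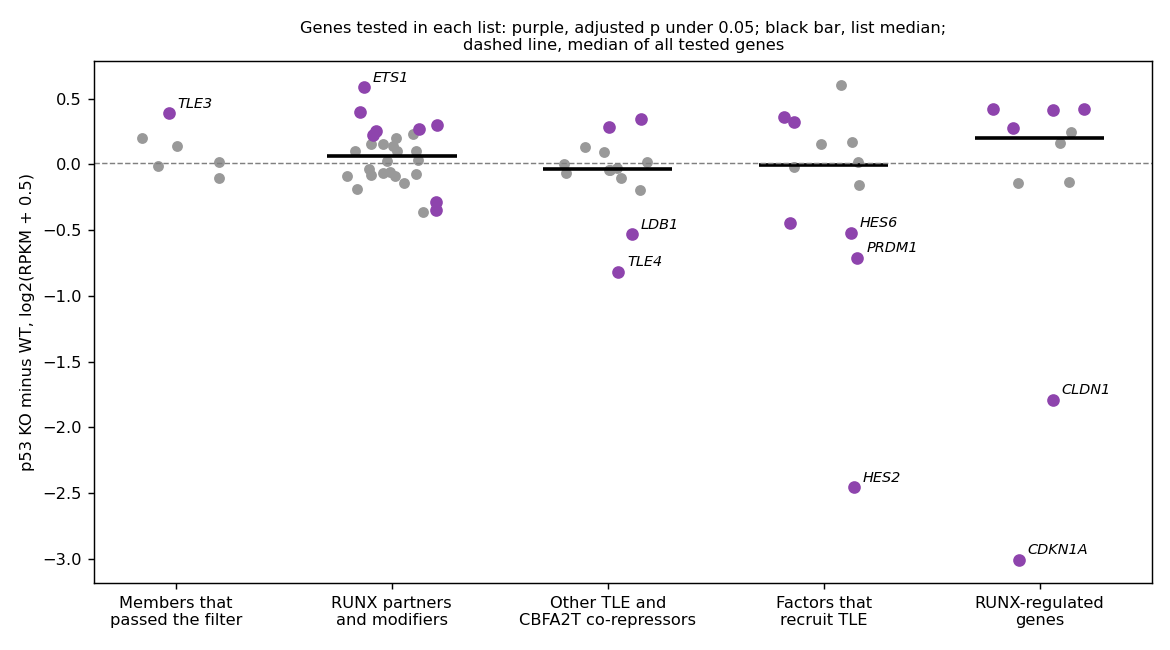
Log2 difference of p53 KO and WT (vertical axis) for every tested gene among the 8 members and of 4 lists (horizontal axis), with genes at an adjusted p under 0.05 in purple, other tested genes in grey, list medians as black bars and the median of all tested genes as a dashed line at 0.01. TLE3 is the one purple point among the members, and TLE4, LDB1, HES2, CLDN1 and CDKN1A lie lowest in their lists.

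Over the 12 libraries the profile of CBFB was most like those of NUS1, NUP43 and NOL10 among all tested genes (Pearson r of log2(RPKM + 0.5) of 0.96, 0.96 and 0.95). The profile of RUNX1 was most like those of DNAJC16, TCF7L2 and MTR (r = 0.92 for each). CBFB and RUNX1 had an r of 0.54 with each other, CBFB and TLE3 0.73, and RUNX1 and CBFA2T2 0.71. CBFB and TLE1 had an r of -0.13. These values describe 12 libraries in 3 groups, and the part of shifts shared within single libraries was not tested. In WT replicate 3, CBFB, RUNX1, RUNX2, TLE1 and TLE3 were each the lowest of the WT group. CBFA2T2 was lowest in WT replicate 4 instead. Among KO313 libraries, CBFB, RUNX1, RUNX2, CBFA2T2 and TLE3 were lowest in replicate 3, and TLE1 in replicate 4.

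Between the clones, no member was called in KO313 against KO414, where 3.36% of tested genes were called, and none of the 6 passed in KO313 or KO414 against WT other than TLE3, where 21.5 and 29.8% of tested genes were called. At an unadjusted p under 0.05, 0 of the 6 differed between the clones and 11.5% of tested genes did. The widest clone differences of members were those of TLE1 (0.14) and CBFA2T2 (0.12, 95% interval -0.06 to 0.31, limma adjusted p = 0.754), both higher in KO313. TLE4, outside the members, was 0.28 higher in KO313 than in KO414 and did not pass (adjusted p = 0.0843).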

How the data were processed

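RNA-seq libraries of MCF10A cells were grouped by the genotype and clone in their labels. Values were deposited as RPKM in 1 table with a column per library. The submitters' processing notes name Trimmomatic and the build hg19. Aligner, read counting, annotation and strandedness: not given in the sources used here. Reads of overlapping and antisense genes therefore cannot be told apart. Per the labels an mRNA kit was used, while the methods describe removal of ribosomal RNA from total RNA. The study's results describe reads biased to the 3′ end.

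Of 22328 table lines, 4 with repeated, date-like symbols were left out. The deposited values were taken to log2(RPKM + 0.5), which understates differences of low genes. Genes with at least 0.5 RPKM in at least 4 libraries were tested (12215) by limma 3.58.1 (R 4.3.3), two-sided and with a mean-variance trend, with Benjamini-Hochberg adjustment over all tested genes. p53 KO against WT used a model of 2 groups, and the clones used a model of 3 groups with a shared spread. P-values take the 8 p53 KO libraries as 8 repeats of 2 clones. Low genes were tested by exact permutation of libraries. The numbers behind the RPKM values were recovered as whole scaled reads (tolerance 1e-08), and are not read counts. Read depth before scaling is unknown. Python 3.11.15, pandas 2.3.3, scipy 1.17.1 and matplotlib 3.10.9 were used.

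The members, lists and tests were chosen with earlier results of these data known. Named were all 8 members, up to 5 called genes per list with the largest log2 differences, the 3 genes most like CBFB and RUNX1, and CDKN1A, MDM2, TP73 and NOTCH3. TLE2, TLE6, AES, RUNX1T1, NCOR1, HDAC1, HDAC3 and SIN3A were named after their values were seen, as were SUV39H1, TCF4, TCF7, HES4, HEY1, BCL2L11 and VEGFA. Another gene that the rule names, and the guides of the clones, are not reported here. MDM2 averaged 10.3 RPKM in p53 KO and 37.9 RPKM in WT. Alternatives were pseudocounts of 0.1 and 1, no filter, quantile normalization, median-ratio scaling, the repeat number as a block, and leaving out each library, and the list counts under these were added after the data were seen. Promoter windows came from RefSeq (GRCh38.p14). The blood cell markers summed to 0.0259 to 0.0954 RPKM in KO313, 0.0187 to 0.0481 RPKM in KO414 and 0.251 to 0.350 RPKM in WT. Scripts were tested on simulated data.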

Additional observations from a re-analysis of the deposited data

Results flagged for a closer look

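Among 117 groups of 4 libraries checked for a library far from the other 3, 11 were flagged. Chance alone sets about 1 in 20 apart where values spread normally, which does not hold for groups with libraries at 0. A group with only 1 library above 0 is always flagged. This was so for RUNX3, above 0 only in KO313 replicate 1 (0.00903 RPKM) among KO313 libraries and only in WT replicate 3 (0.00452 RPKM) among WT libraries. It was also so for CBFA2T3, above 0 only in KO313 replicate 3 (0.00803 RPKM). TLE1 was low in WT replicate 3 at 2.03 RPKM, against 2.19 RPKM in the nearest WT library. In the lists, KO414 replicate 1 was low for ELF4 (8.49 RPKM), LEF1 (1.67 RPKM) and SIN3A (5.14 RPKM) and high for TLE2 (0.586 RPKM). LDB1 was high in WT replicate 3 (20.7 RPKM), HES1 in WT replicate 1 (6.80 RPKM) and CLDN1 in KO414 replicate 3 (2.15 RPKM).

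The 2 clones differed, by limma with adjustment over all tested genes, in CLDN1 (log2 difference 0.74 of KO313 minus KO414) and GATA3 (0.38). Of other genes in the lists and markers, TCF4 was called higher and EPCAM and VEGFA lower in KO313 than in KO414. TP73, below the filter, differed between them by -0.46 (exact two-sided permutation p = 0.0286, the smallest 4 against 4 can give). None of the 8 members was among them.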

How the results depend on the processing

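TLE3 was called in p53 KO, KO313 and KO414 against WT under each of 18 alternatives (6 settings and 12 left-out libraries), with a p53 KO difference of 0.33 without WT replicate 3 to 0.44 with a pseudocount of 0.1 and an adjusted p of 0.000547 to 0.00848. RUNX2 was called in p53 KO against WT with quantile normalization (0.31), as in KO313 (0.28) and KO414 (0.35). Its p53 KO difference moved to 0.32 and 0.13 with pseudocounts of 0.1 and 1, without a call, and over left-out libraries it was 0.17 to 0.23, called without KO414 replicate 1. The cause was not tested. CBFB, RUNX1, TLE1 and CBFA2T2 were called under none of the alternatives in any of the 4 comparisons. Differences near 0 changed sign. With quantile normalization TLE1 gave 0.018 in p53 KO against WT. Over left-out libraries RUNX1 ranged from -0.041 to 0.061 in p53 KO, -0.015 to 0.10 in KO313 and -0.066 to 0.056 in KO414 against WT and from -0.014 to 0.11 between the clones. TLE1 in p53 KO ranged from -0.038 to 0.013 and CBFA2T2 in KO313 from -0.10 to 0.0080. Between the clones RUNX2 ranged from -0.086 to 0.038 and TLE3 from -0.10 to 0.040. In p53 KO against WT, AES ranged from -0.022 to 0.053, HDAC3 from -0.036 to 0.085 and NCOR1 from -0.036 to 0.093. Genes called in p53 KO against WT numbered 2614 to 4392 over left-out libraries, beside 3615, and 180 were called at a fold of 2, or 273 with a pseudocount of 0.1. Between the clones 411 were called, or 701 with no filter. The repeat numbers were not taken to pair the libraries, since no source ties them to a shared day or culture and 6 of 12 same-numbered pairs, not all, had a correlation of deviations over 0.1 (-0.19 to 0.51, with 0.27, 0.19 and 0.51 for the first 3 numbers of KO313 and WT). A shared origin of some numbers was not tested. As an alternative, with the replicate block 3466 genes were called in p53 KO against WT, with no call of a member changed. Among other named genes the block ended the p53 KO calls of LMO2 (adjusted p = 0.0720) and BCL2L11 (0.0599). With no filter LMO2 (adjusted p = 0.0579), CSF2 (0.0521) and BCL2L11 missed the threshold. The exact permutation p of RUNX2 was 0.0606 in p53 KO against WT without WT replicate 3. RUNX3 and CBFA2T3 were too low for a difference to be detectable.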
